A study of Mus musculus with 16 samples.

Results

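The Ifi200 family was taken as 9 gene symbols: Aim2, Ifi202b, Ifi203, Ifi204, Ifi205, Ifi206, Ifi207, Mnda and Mndal. Members were found by an exact match of the symbol in 2 tables of RNA-seq counts from KPC1199 cells. 8 of the 9 symbols had a row in both tables, among 56980 genes in the table of the IFNγ experiment and 55414 in the table of the untreated experiment. Mnda had no row under that symbol, and the RefSeq gene table lists Mnda as a synonym of Ifi211, whose values are given separately. KPC1199 is a mouse pancreatic ductal adenocarcinoma (PDAC) line from the KPC mouse, which carries Pdx-cre and a mutant Trp53 allele, and this background is shared by every group. The cells carried a lentiviral CRISPR-Cas9 construct, selected with puromycin, with either a non-targeting guide (sgCtrL, labelled WT) or a guide against Sin3B (Sin3Bsg1, labelled Sin3B Knockout), a subunit of the SIN3 histone deacetylase corepressor. The IFNγ experiment held 3 libraries of each guide without IFNγ and 3 of each guide with IFNγ at 10 ng/ml for 24 h, and the untreated experiment held 2 libraries of each guide. The labels do not say whether libraries of a group came from separate cultures, so p-values measure only the spread between these libraries.

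The genes of this family encode proteins with a HIN domain, which binds DNA, and most also carry an N-terminal pyrin domain, which binds other pyrin domains, so the family is also called PYHIN. They lie side by side in a cluster that has been duplicated many times in the mouse, and most are known as interferon-induced genes of myeloid cells. Aim2 is the cytosolic double-stranded DNA sensor that assembles an inflammasome with the adaptor Pycard and caspase-1, while Ifi204 is the mouse gene most often set beside human IFI16, a DNA sensor that acts through STING. Ifi202b encodes a protein without a pyrin domain, and its expression is known to differ between mouse strains.

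Total counts ran from 18128031 to 27056860 in the IFNγ experiment and from 29499708 to 32093653 in the untreated experiment. Levels are given as CPM (counts over the TMM-scaled library size) and, where genes are compared with each other, as TPM (the same per length, from the deposited gene lengths). Sin3b itself was at 88.4 to 95.5 CPM in the sgCtrL libraries without IFNγ and at 38.6 to 39.4 CPM in the Sin3Bsg1 ones, so the transcript was lower but present in the libraries labelled as knockout. Of 10 myeloid markers, 1 reached 1 CPM in any library and the list summed to 4.36 to 7.15 CPM over the IFNγ experiment, with Adgre1, Lyz2 and Tyrobp at 0 in all 12 libraries. The 8 lymphoid markers summed to at most 0.282 CPM, whereas 7 of 8 epithelial and ductal tumor markers reached 1 CPM. The 8 fibroblast markers, of which 3 or 4 reached 1 CPM, moved with the groups: their sum was 1369 to 1418 CPM in sgCtrL and 1035 to 1072 CPM in Sin3Bsg1 cells without IFNγ, 835 to 939 CPM and 710 to 737 CPM with IFNγ, and 515 to 516 CPM and 210 to 215 CPM in the untreated experiment. The sum of the epithelial list was higher in Sin3Bsg1 cells, at 3179 to 3209 CPM against 3420 to 3533 CPM without IFNγ and at 3282 to 3827 CPM against 4329 to 4566 CPM with it. The fibroblast list holds Col3a1, which the study found at a high level in its tumor cells. The study also reports lower collagen expression in cultured cells after Sin3B loss. The part of these marker shifts in the values of the family was not tested. In bulk RNA a smaller share of cells with a transcript and less transcript per cell cannot be told apart.

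The promoters of the members are shown first, because the response to IFNγ is the largest change in the family and its transcription factors bind short elements near the start. The sequences are from RefSeq (build GRCm38.p6, 250 bases before to 50 bases after the transcript start) and were placed in GRCm39 by exact match. They are printed 5′ to 3′ on the strand of the gene, with matches to the core of the interferon-stimulated response element (ISRE, searched on both strands as GAAA and GAAA with any 2 bases between them) in capitals, except for Aim2, which holds none:
Ifi203 (chr1:173770009-173770308, minus strand): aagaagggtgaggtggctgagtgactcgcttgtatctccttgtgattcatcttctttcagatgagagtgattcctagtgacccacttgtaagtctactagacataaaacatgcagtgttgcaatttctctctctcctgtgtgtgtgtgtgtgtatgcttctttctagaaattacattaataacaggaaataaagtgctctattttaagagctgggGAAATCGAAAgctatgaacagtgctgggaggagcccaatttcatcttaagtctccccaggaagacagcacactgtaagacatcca
Mndal (chr1:173707704-173708003, minus strand): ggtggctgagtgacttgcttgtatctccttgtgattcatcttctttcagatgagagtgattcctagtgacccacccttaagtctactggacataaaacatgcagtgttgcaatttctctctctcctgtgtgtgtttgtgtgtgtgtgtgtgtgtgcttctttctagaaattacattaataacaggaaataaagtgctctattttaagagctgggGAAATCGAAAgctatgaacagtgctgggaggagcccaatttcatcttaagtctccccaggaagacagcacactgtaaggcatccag
Ifi206 (chr1:173318835-173319134, minus strand): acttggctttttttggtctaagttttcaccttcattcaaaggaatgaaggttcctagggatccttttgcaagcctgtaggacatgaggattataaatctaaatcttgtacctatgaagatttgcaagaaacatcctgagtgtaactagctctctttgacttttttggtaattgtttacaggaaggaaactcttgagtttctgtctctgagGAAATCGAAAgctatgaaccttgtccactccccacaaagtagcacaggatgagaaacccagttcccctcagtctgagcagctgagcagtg
Ifi207 (chr1:173569326-173569625, minus strand): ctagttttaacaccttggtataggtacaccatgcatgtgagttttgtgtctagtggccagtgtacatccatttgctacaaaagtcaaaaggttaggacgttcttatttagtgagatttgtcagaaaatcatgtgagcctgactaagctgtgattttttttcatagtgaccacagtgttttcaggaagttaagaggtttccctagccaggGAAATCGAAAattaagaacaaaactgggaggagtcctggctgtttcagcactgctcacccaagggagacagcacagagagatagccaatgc
Ifi205 (chr1:173859272-173859571, minus strand): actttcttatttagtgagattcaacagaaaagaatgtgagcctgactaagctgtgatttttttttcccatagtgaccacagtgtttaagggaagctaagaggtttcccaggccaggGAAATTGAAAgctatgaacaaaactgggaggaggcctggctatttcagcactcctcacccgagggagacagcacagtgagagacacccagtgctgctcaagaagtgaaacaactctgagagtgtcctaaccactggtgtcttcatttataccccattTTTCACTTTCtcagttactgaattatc
Aim2 (chr1:173247920-173248219, plus strand): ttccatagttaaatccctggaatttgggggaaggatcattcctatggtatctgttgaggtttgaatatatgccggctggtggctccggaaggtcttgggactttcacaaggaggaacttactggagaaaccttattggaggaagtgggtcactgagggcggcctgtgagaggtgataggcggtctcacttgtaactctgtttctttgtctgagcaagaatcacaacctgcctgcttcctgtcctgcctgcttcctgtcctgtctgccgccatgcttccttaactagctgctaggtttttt

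Counted from the transcript start, the element GAAATCGAAA lay at −41 to −32 in Ifi207, −40 to −31 in Ifi206, −36 to −27 in Mndal and −35 to −26 in Ifi203. The second RefSeq window of Mndal, which is not printed, held a match on the other strand, at −54 to −45 from its own start. The second window of Ifi203, also not printed, held no match, and the window of Ifi202b is not printed either. Ifi205 held GAAATTGAAA further upstream, at −134 to −125, and a match on the other strand after it. The ISRE core was found in 6 of the 9 promoter windows of the 7 members in the RefSeq table and in at least 1 window of 5 of these members, against 3.44% of all 32851 mouse promoter windows. No match lay in the windows of Aim2 and Ifi202b. The Aim2 window, at 173247920 to 173248219, lies inside the GENCODE gene, which starts at 173178445. The bases around that start were not searched, so the result for Aim2 holds for its RefSeq window only. The gamma-activated site (GAS, TTCNNNGAA, which reads the same on both strands) was in 8.30% of all windows and in 1 window of the family, that of Ifi202b. Its stricter form (TTCC and GGAA around any 1 base) was in 1.15% of all windows and in 0 of the 14 family windows, and the kappaB core (GGGA and CC with any 3 bases between them, on both strands) was in 18.6% of all windows and in 1 family window, of Ifi203. These are matches of letters, and the windows of paralogs are not independent: the printed windows of Mndal and Ifi203 share an unbroken run of 139 bases. Ifi204 had no entry.

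In the GENCODE annotation of GRCm39 the 8 members lay within 681 kb of chromosome 1, from Aim2 (173178445 to 173293930, plus strand) to Ifi205 (173839549 to 173859456, minus strand). The other members were on the minus strand: Ifi206 (173296051 to 173318873), Ifi207 (173550990 to 173569383), Ifi204 (173574859 to 173594610), Mndal (173676539 to 173708447), Ifi203 (173747971 to 173770436) and Ifi202b (173790134 to 173810414). Ifi211, Ifi213, Ifi214, Ifi208 and Ifi209 lay between them. Exons of 7 members overlapped no exon of another gene, and 2.88% of the exon bases of Mndal were shared with Gm38050 on the same strand.

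Read sharing between paralogs was measured as the share of 100-base windows of a gene's annotated transcripts that occur, letter for letter, in a transcript of another gene. Aim2 and Ifi202b shared none of their windows and Ifi207 shared 0.763%. The share was 5.48% for Ifi203, 7.16% for Mndal, 11.2% for Ifi206, 11.8% for Ifi204 and 14.4% for Ifi205. For Ifi204 and Ifi205 the main partner was Ifi211, of whose own windows 51.8% were shared. Deposited values that are not whole stood in 12 of 12 libraries of the IFNγ experiment for Ifi204 and for Ifi205, in 10 for Mndal, 9 for Ifi203, 6 for Ifi207, 3 for Ifi206 and 1 for Aim2. This order does not follow the shared windows throughout, since Ifi207 shared fewer windows than Ifi206, which had counts in 6 libraries only. Moves of reads among paralogs can change the count of single members, so the summed count of the members is given beside them. The sum holds only against moves among the members, since Ifi211, the main partner of Ifi204 and Ifi205, lies outside it. So does Ifi208, which holds 4.70% of the windows of Ifi206.

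**Figure D1:**
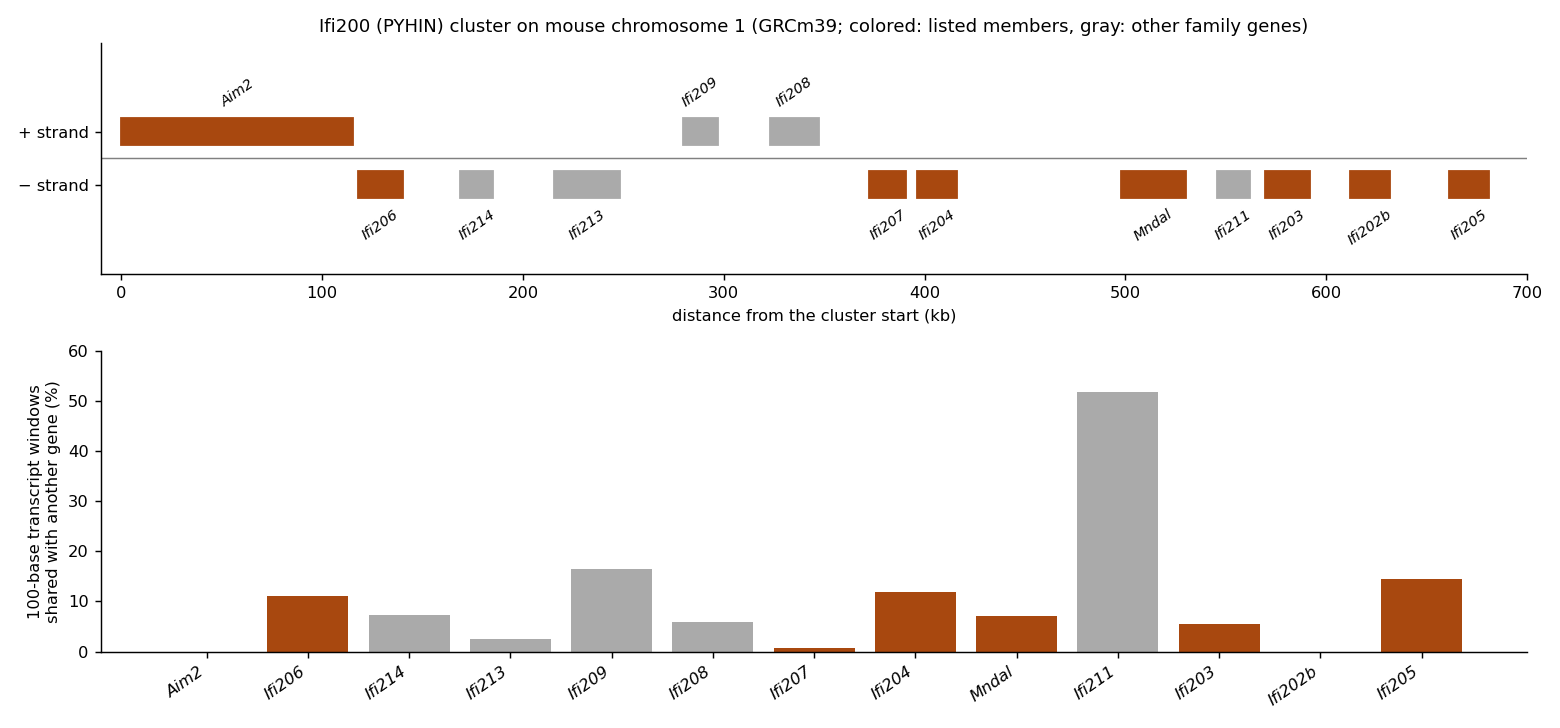
The upper panel shows the Ifi200 (PYHIN) cluster to scale, with distance from the cluster start in kb and genes on the plus strand above the line. The lower panel shows the percentage of 100-base transcript windows shared with another gene, which is 0 for Aim2 and Ifi202b, 14.4% for Ifi205 and 51.8% for Ifi211.

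Without IFNγ the members differed widely in level. Per length, Ifi204 and Aim2 led in sgCtrL cells of the IFNγ experiment at 27.2 ± 0.995 and 26.9 ± 1.17 TPM (SD, n = 3), and their ranges overlapped. Ifi203 followed at 14.2 ± 1.13 TPM and Mndal at 6.91 ± 1.20 TPM, each apart from its neighbours in this order. Ifi205 at 2.52 ± 0.155 TPM and Ifi207 at 2.16 ± 0.469 TPM overlapped. Ifi206 and Ifi202b had no count in any of the 6 libraries without IFNγ. With 0 counts, up to 3 counts per library are allowed, so their expression was not detectable at this depth rather than absent.

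In the untreated experiment the sgCtrL cells had the order Ifi204 (51.1 ± 0.189 TPM, n = 2), Ifi203 (29.7 ± 0.708 TPM), Aim2 (25.01 ± 0.411 TPM) and Mndal (15.4 ± 1.22 TPM), without overlap between neighbours. Ifi205 (2.69 ± 0.985 TPM) and Ifi207 (1.90 ± 0.171 TPM) overlapped. Ifi206 had 0 to 2 counts and Ifi202b 0 to 3 counts per library. The sgCtrL levels of Ifi203, Ifi204 and Mndal were thus higher in the untreated experiment than in the sgCtrL libraries without IFNγ, whereas those of Aim2 were close in both. The tables are separate experiments and this difference was not tested.

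The first comparison asks how the family responded to IFNγ in each genotype. In sgCtrL cells Ifi203, Ifi204, Ifi205, Ifi206, Ifi207 and Mndal rose with IFNγ and Aim2 fell slightly, and in Sin3Bsg1 cells the same 6 rose while Aim2 did not pass the test. Ifi203, Ifi204, Ifi205, Ifi207 and Mndal, which had counts in both conditions, rose 4.54- to 11.7-fold in sgCtrL cells and 4.06- to 9.01-fold in Sin3Bsg1 cells. Of all 14913 genes tested, 15.7% were higher and 14.5% lower with IFNγ in sgCtrL cells, and 16.1% were higher and 12.3% lower in Sin3Bsg1 cells. The median log2 fold change of the 6 members other than Ifi206 was 3.28 in sgCtrL cells and 2.93 in Sin3Bsg1 cells, against −0.00060 and 0.0052 for all genes tested. Ifi202b did not pass the filter on low counts and had no count in the 6 libraries with IFNγ either.

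Ifi203, a pyrin-domain member of the family, had the highest level with IFNγ. Its libraries were at 20.6, 20.9 and 17.95 CPM without IFNγ and at 180, 192 and 192 CPM with IFNγ in sgCtrL cells. In Sin3Bsg1 cells they were at 31.2, 30.1 and 30.5 CPM and at 269, 260 and 255 CPM. The groups did not overlap in either genotype. The log2 fold change was 3.24 ± 0.0594 (SE, adjusted p = 2.9e-16, edgeR) in sgCtrL cells and 3.09 ± 0.0567 (adjusted p = 2.6e-16) in Sin3Bsg1 cells.

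Ifi204, the counterpart of IFI16, had the smallest rise. Its sgCtrL libraries were at 29.3, 27.8 and 28.2 CPM without and 138, 126 and 124 CPM with IFNγ, and its Sin3Bsg1 libraries at 32.5, 32.7 and 36.6 CPM without and 141, 133 and 139 CPM with IFNγ. Every library with IFNγ stood above every library without it. The log2 fold change was 2.18 ± 0.0604 (adjusted p = 7.4e-14) in sgCtrL cells and 2.02 ± 0.0586 (adjusted p = 1.4e-13) in Sin3Bsg1 cells.

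Mndal, whose name means that it resembles the myeloid nuclear differentiation antigen, had the highest fold change among the members with counts in both conditions. In sgCtrL cells it went from 7.54, 5.51 and 6.09 CPM to 77.0, 71.7 and 74.0 CPM, a log2 fold change of 3.55 ± 0.0875 (adjusted p = 1.7e-14). In Sin3Bsg1 cells it went from 10.3, 11.999 and 11.04 CPM to 96.9, 99.5 and 104 CPM, a log2 fold change of 3.17 ± 0.0787 (adjusted p = 1.7e-14). All 6 libraries with IFNγ were above all 6 without it.

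Ifi207 and Ifi205 were low without IFNγ and rose about as far as Ifi203. Ifi207 was at 2.64, 3.38 and 4.11 CPM without and 32.6, 35.3 and 33.3 CPM with IFNγ in sgCtrL cells, and at 6.89, 6.13 and 5.11 CPM and 49.8, 49.7 and 43.0 CPM in Sin3Bsg1 cells. Ifi205 was at 1.94, 1.75 and 1.87 CPM without and 20.4, 16.6 and 18.5 CPM with IFNγ in sgCtrL cells, and at 2.85, 3.78 and 2.49 CPM and 21.0, 22.2 and 24.3 CPM in Sin3Bsg1 cells. The groups with and without IFNγ were apart for both genes. The log2 fold changes in sgCtrL and Sin3Bsg1 cells were 3.32 ± 0.125 and 2.97 ± 0.109 for Ifi207 and 3.32 ± 0.146 and 2.89 ± 0.128 for Ifi205, with adjusted p-values of at most 4.3e-11.

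Ifi206 was the member seen only with IFNγ in this experiment. It had 294, 382 and 274 counts in the sgCtrL libraries with IFNγ and 525, 525 and 462 counts in the Sin3Bsg1 ones, against 0 counts in each of the 6 libraries without IFNγ. Against a floor of 3 counts per library, the mean level was at least 92.5-fold higher in sgCtrL cells and at least 168-fold higher in Sin3Bsg1 cells. The 2 bounds differ with the level reached and with depth and are no test of the genotypes. Ifi206 passed the filter on low counts only through the libraries with IFNγ.

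Aim2 stood apart from the other members. Its sgCtrL libraries were at 35.5, 33.5 and 35.6 CPM without and 27.2, 31.7 and 31.1 CPM with IFNγ, and its Sin3Bsg1 libraries at 34.4, 35.8 and 34.98 CPM without and 33.6, 33.9 and 32.7 CPM with IFNγ. The groups did not overlap in either genotype, but the shifts were small. The log2 fold change was −0.21 ± 0.0617 in sgCtrL cells (adjusted p = 0.0152) and −0.068 ± 0.0603 in Sin3Bsg1 cells (adjusted p = 0.451, 95% interval −0.20 to 0.060). The call in sgCtrL cells was lost when sgCtrL replicate 1 or 3 without IFNγ was left out (adjusted p = 0.0551 and 0.0573) and when only the 6 sgCtrL libraries were fitted (adjusted p = 0.0586).

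The makeup of the family shifted with IFNγ. Aim2 made up 36.8% of the summed counts of the members in sgCtrL cells without IFNγ and 6.15% with it, and the share of Ifi203 was 20.9% without and 38.6% with IFNγ. The members together were at 92.9 to 97.5 CPM without and at 485 to 490 CPM with IFNγ in sgCtrL cells, and at 118 to 121 CPM and 617 to 633 CPM in Sin3Bsg1 cells. The log2 ratio of the mean sums was 2.36 in sgCtrL and 2.38 in Sin3Bsg1 cells, a value that moves of reads among the members cannot change and that was not tested. These ratios include Aim2, which did not rise and whose share without IFNγ was 36.8% in sgCtrL and 29.3% in Sin3Bsg1 cells. Per length, the order with IFNγ in sgCtrL cells was Ifi203 (128 ± 4.56 TPM, n = 3), Ifi204 (117 ± 7.46), Mndal (76.1 ± 3.52), Ifi205 (23.8 ± 2.70), Aim2 (21.9 ± 1.65), Ifi207 (20.5 ± 0.590) and Ifi206 (9.40 ± 0.798). In this order Ifi203 overlapped Ifi204, and Ifi205, Aim2 and Ifi207 overlapped their neighbours among these 3.

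**Figure D2:**
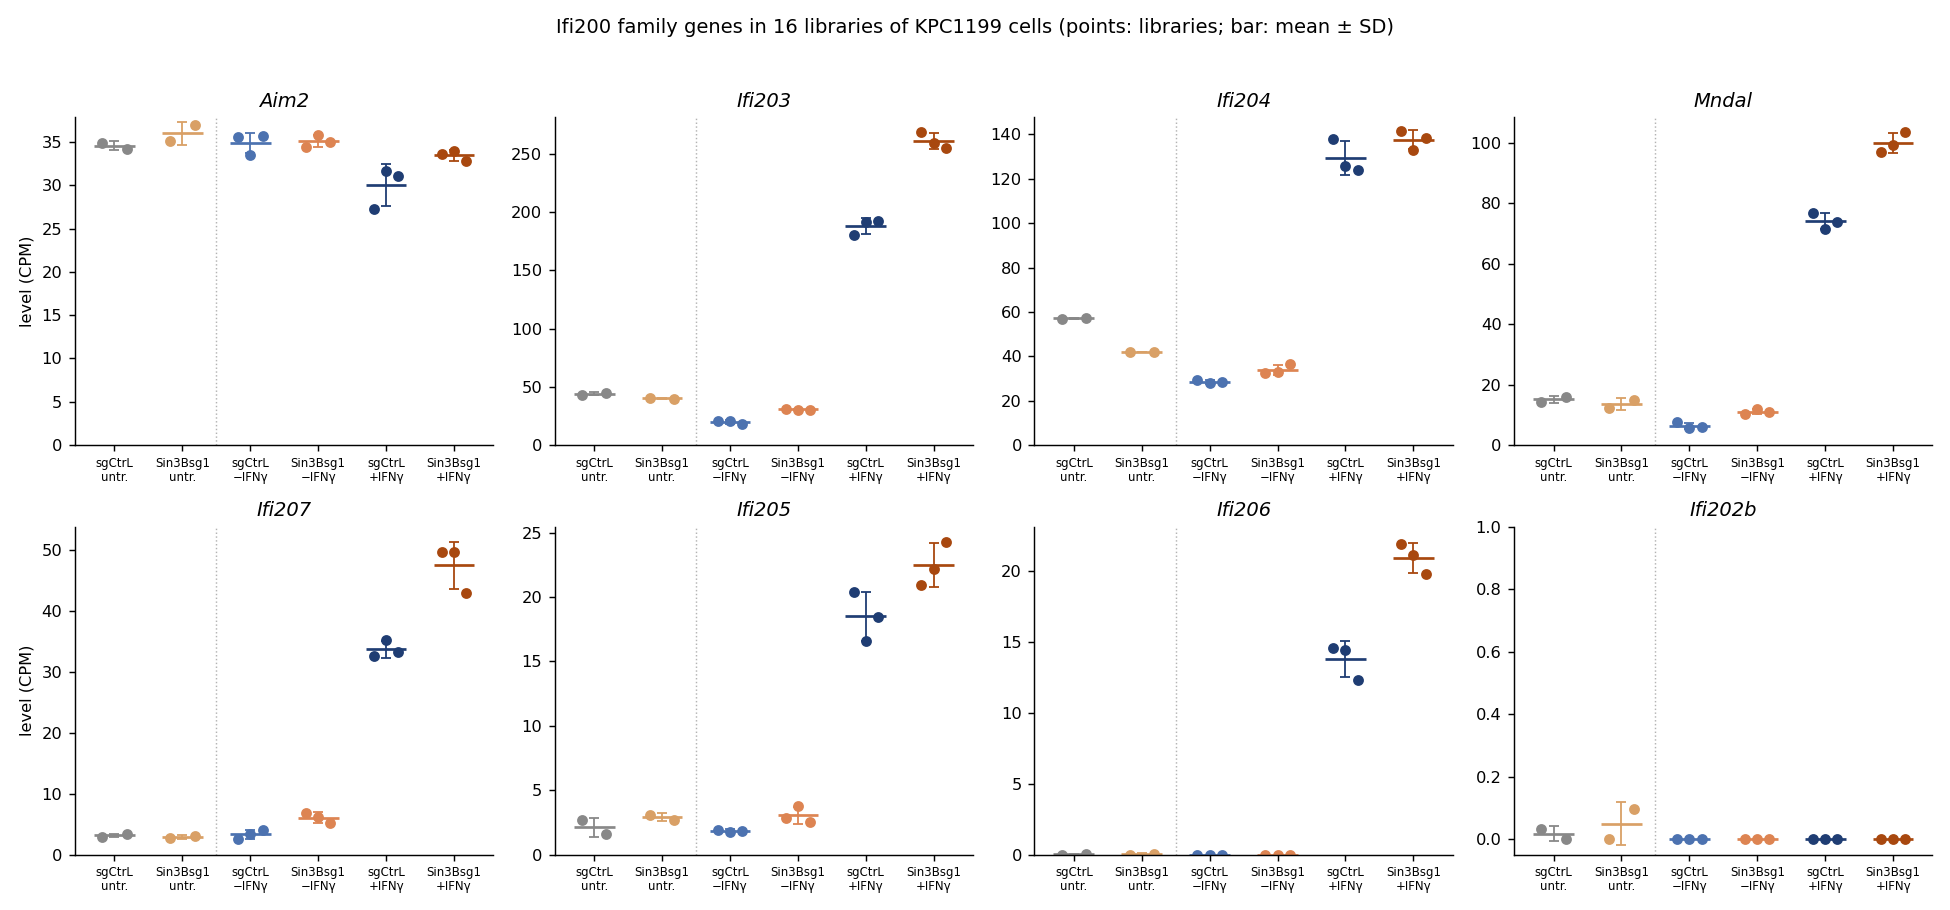
Level of each member in CPM (y axis, linear and separate for each gene) in the 16 libraries, with points for libraries, bars for the mean and error bars for the SD; the dotted line separates the untreated experiment from the IFNγ experiment. Ifi203, Ifi204, Mndal, Ifi207, Ifi205 and Ifi206 are higher in all 6 libraries with IFNγ than in all 6 without it, Aim2 stays between 27.2 and 36.9 CPM, and Ifi202b is at 0 in the IFNγ experiment.

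**Figure D3:**
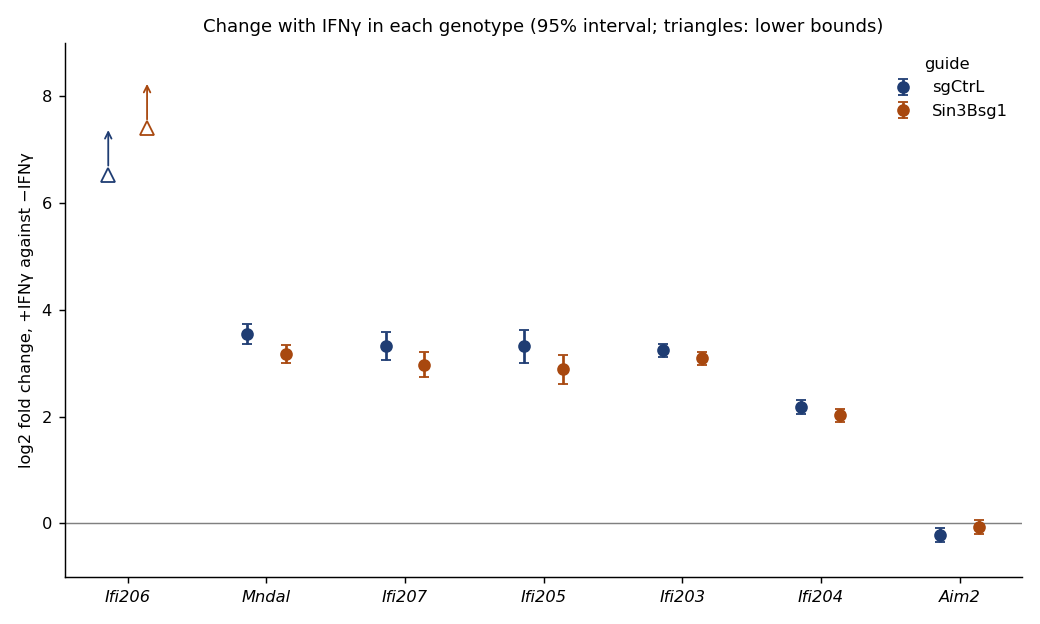
Log2 fold change with IFNγ (y axis) for the members tested, in sgCtrL and Sin3Bsg1 cells, 3 libraries against 3. The 95% intervals are from the fit over all 12 libraries of the IFNγ experiment. Open triangles with arrows are the lower bounds of Ifi206, and Aim2 lies near 0 while the other 5 members lie between 2.02 and 3.55.

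The second comparison asks whether loss of Sin3b changed the level of the family before and after IFNγ. Without IFNγ, Ifi203, Ifi204, Ifi205, Ifi207 and Mndal were higher in Sin3Bsg1 than in sgCtrL cells, by 1.19- to 1.79-fold, and Aim2 did not pass the test. This is 5 of the 6 members with counts, whereas 7.89% of all genes tested were higher and 9.32% lower. With IFNγ, Ifi203, Ifi206, Ifi207 and Mndal were higher in Sin3Bsg1 cells by 1.35- to 1.52-fold, and Ifi204, Ifi205 and Aim2 did not pass. This is 4 of the 7 members with counts, against 8.62% of all genes higher and 7.89% lower. The median log2 fold change of the members was 0.67 without and 0.43 with IFNγ, against −0.0090 and 0.0036 for all genes tested.

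The largest differences without IFNγ were those of Ifi207 and Mndal. The 3 Sin3Bsg1 libraries of each, given above, stood above the 3 sgCtrL libraries. The log2 fold change was 0.84 ± 0.1498 (adjusted p = 0.000905) for Ifi207 and 0.81 ± 0.101 (adjusted p = 3.2e-05) for Mndal. With IFNγ the libraries were again apart, with 0.49 ± 0.0914 (adjusted p = 0.00131) for Ifi207 and 0.43 ± 0.0666 (adjusted p = 0.00028) for Mndal.

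Ifi203 was higher by 0.62 ± 0.0614 on the log2 scale without IFNγ (adjusted p = 3.04e-06) and by 0.47 ± 0.0505 with IFNγ (adjusted p = 8.2e-06). None of its Sin3Bsg1 libraries overlapped the sgCtrL libraries of the same condition. Ifi206, which had counts only with IFNγ, was at 14.6, 14.4 and 12.3 CPM in sgCtrL and 21.9, 21.2 and 19.8 CPM in Sin3Bsg1 cells. These groups were apart, with a log2 fold change of 0.61 ± 0.103 (adjusted p = 0.00172).

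The calls for Ifi204 and Ifi205 were less firm. Without IFNγ, Ifi204 was higher by 0.25 ± 0.0627 (adjusted p = 0.0101) and Ifi205 by 0.72 ± 0.179 (adjusted p = 0.011), and both sets of groups were apart. Both calls were lost without sgCtrL replicate 2 (adjusted p = 0.0501 for Ifi204 and 0.0538 for Ifi205), which leaves 3 members called. Ifi204 also lost its call without Sin3Bsg1 replicate 3 (adjusted p = 0.0547) and Ifi205 without Sin3Bsg1 replicate 2 (adjusted p = 0.0579). With IFNγ the groups overlapped for Ifi204 (0.092 ± 0.0543, adjusted p = 0.291) but not for Ifi205 (0.28 ± 0.105, adjusted p = 0.0801). Without sgCtrL replicate 1 with IFNγ both passed (adjusted p = 0.0394 for Ifi204 and 0.0184 for Ifi205), so that 6 members were called, and Ifi205 also passed without Sin3Bsg1 replicate 2 of the cells without IFNγ (adjusted p = 0.0496).

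Aim2 did not pass the test between genotypes in either condition. Without IFNγ its groups overlapped, with a log2 fold change of 0.0079 ± 0.0608 (adjusted p = 0.953, 95% interval −0.12 to 0.14). With IFNγ each Sin3Bsg1 library stood above each sgCtrL library, by 0.15 ± 0.0611, and the adjusted p was 0.101 (95% interval 0.025 to 0.28).

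The summed counts of the members gave a log2 ratio of Sin3Bsg1 to sgCtrL of 0.34 without and 0.35 with IFNγ, with no overlap between the groups. The difference between those ratios was 0.017, and no test was made of it. Both sums hold Aim2, whose log2 fold change between genotypes was 0.0079 without and 0.15 with IFNγ. Aim2 made up 36.8% of the sgCtrL sum without IFNγ and 6.15% with it. It thus weighs more on the ratio without IFNγ, and the near equality of the ratios does not describe the other members. For Ifi203, Ifi204, Ifi205, Ifi207 and Mndal the log2 fold change between genotypes was smaller with IFNγ than without it, which the interaction addresses.

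**Figure D4:**
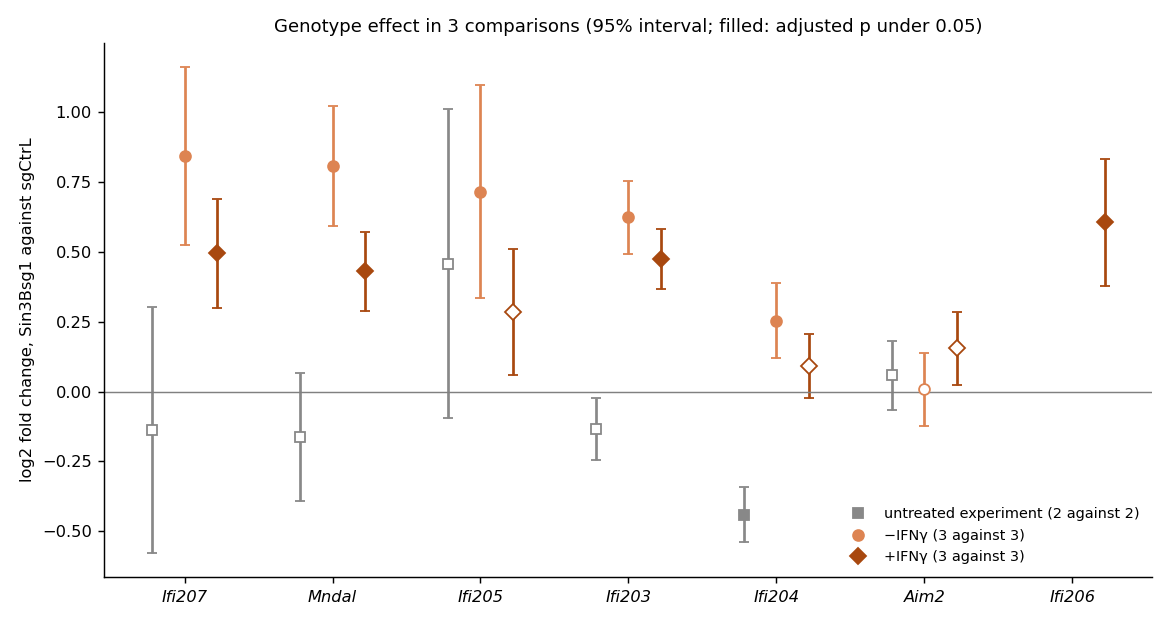
Log2 fold change of Sin3Bsg1 against sgCtrL (y axis) for each member in the untreated experiment, without IFNγ and with IFNγ, with 95% intervals; filled symbols passed the adjusted p of 0.05. Without IFNγ 5 members are filled and above 0, with IFNγ 4 are, and in the untreated experiment the one filled symbol is Ifi204, below 0.

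The interaction of genotype and IFNγ asks whether the response to IFNγ differed between the genotypes. None of the 6 members that could be tested passed in edgeR, 1 did at an unadjusted p under 0.05, and none passed in DESeq2. Of all genes tested 0.0805% had a higher and 0.0335% a lower response in Sin3Bsg1 cells. The member at an unadjusted p under 0.05 was Mndal, with a log2 difference of −0.38 ± 0.121 (edgeR, unadjusted p = 0.00695, adjusted p = 0.644). Ifi203, Ifi204, Ifi205 and Ifi207 had differences from −0.43 to −0.15 with 95% intervals that included 0, and Aim2 had 0.15 ± 0.0862. Ifi206 had no count without IFNγ and gives no interaction.

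The untreated experiment compared the same guides with 2 libraries each. Of the 6 members that passed the filter, Ifi204 was lower in Sin3Bsg1 cells and 5 did not pass, where 15.1% of all 14589 genes tested were higher and 16% lower. Ifi204 was at 56.9 and 57.4 CPM in sgCtrL and at 42.1 CPM in both Sin3Bsg1 libraries, a log2 fold change of −0.44 ± 0.0464 (adjusted p = 1.7e-06). Ifi203 was at 43.3 and 45.0 CPM in sgCtrL and at 40.6 and 39.8 CPM in Sin3Bsg1 libraries, which did not overlap, and the test gave −0.13 ± 0.0515 (adjusted p = 0.0603).

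Mndal was at 14.3 and 16.05 CPM in sgCtrL and 12.2 and 14.95 CPM in Sin3Bsg1 libraries, and Ifi207 at 2.95 and 3.37 CPM and at 2.68 and 3.07 CPM, with overlap for both. Ifi205 was at 2.65 and 1.56 CPM and at 3.11 and 2.69 CPM, and Aim2 at 34.9 and 34.2 CPM and at 35.1 and 36.9 CPM, with the Sin3Bsg1 libraries above for both. Their adjusted p-values ran from 0.209 to 0.676. With sgCtrL replicate 1 left out Ifi205 was at 0.89 (adjusted p = 0.0312) and with Sin3Bsg1 replicate 2 left out Mndal was at −0.31 (adjusted p = 0.0354), which gives 2 members called in each case. These fits leave 1 library in a group, which is assumed to vary like the 2 libraries of the other. The summed counts were at 155 and 158 CPM in sgCtrL and 136 and 140 CPM in Sin3Bsg1 libraries, a log2 ratio of −0.18.

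For the same guides without IFNγ, Ifi203, Ifi204, Ifi207 and Mndal had log2 fold changes on opposite sides of 0 in the 2 tables, and Ifi205 and Aim2 had them on the same side. The log2 fold change of Ifi204 was −0.44 among the untreated libraries against 0.25 among the libraries without IFNγ of the other table, and that of Ifi203 was −0.13 against 0.62. The difference was not tested.

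Of 16 other symbols of the family, 6 had a row and 4 passed the filter in the IFNγ experiment. Ifi211 shares most with Ifi204 and Ifi205. It was at 36.0, 38.6 and 39.1 CPM without and 150, 134 and 141 CPM with IFNγ in sgCtrL cells, and at 44.0, 44.9 and 46.7 CPM and 160, 155 and 169 CPM in Sin3Bsg1 cells, without overlap between any of these groups. It rose by 1.91 ± 0.0570 with IFNγ in sgCtrL cells (adjusted p = 2.3e-13) and was higher in Sin3Bsg1 cells by 0.25 ± 0.0583 without (adjusted p = 0.00625) and 0.18 ± 0.0525 with IFNγ (adjusted p = 0.0241). In the untreated experiment it was lower (−0.13 ± 0.0426, adjusted p = 0.0248).

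Ifi208 and Ifi213 were at the floor without IFNγ and reached 1.71 to 2.93 CPM and 1.40 to 1.89 CPM with IFNγ in sgCtrL cells and 4.03 to 5.34 CPM and 2.79 to 3.31 CPM in Sin3Bsg1 cells. The rise in sgCtrL cells was at least 15.3-fold for Ifi208 and at least 10.9-fold for Ifi213. Both were higher in Sin3Bsg1 than in sgCtrL cells with IFNγ, by 1.08 ± 0.261 (adjusted p = 0.0093) and 0.93 ± 0.261 (adjusted p = 0.0318). The pseudogene Ifi203-ps rose by 3.32 ± 0.256 with IFNγ in sgCtrL cells (adjusted p = 5.6e-08), and its genotype differences did not pass. Ifi209 and Ifi214 reached at most 0.209 CPM in any library.

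Of the 10 genes of the inflammasome and pyroptosis list, 8 were tested. With IFNγ, 4 rose in each genotype, with a median log2 fold change of 0.19 in sgCtrL and 0.18 in Sin3Bsg1 cells. Among all genes tested, 15.7% were higher with IFNγ in sgCtrL cells and 16.1% in Sin3Bsg1 cells. Gsdmd, the pore-forming protein of pyroptosis, rose by 1.01 ± 0.0538 in sgCtrL cells (adjusted p = 4.6e-10), and Casp4, the caspase that senses lipopolysaccharide, rose by 0.71 ± 0.0701 (adjusted p = 1.1e-06). Casp8, an initiator caspase, rose by 0.34 ± 0.0462 (adjusted p = 3.2e-05), and Gsdme and Ninj1 did not pass (−0.073 ± 0.0870 and 0.035 ± 0.0698). Between genotypes without IFNγ 1 gene was higher and 2 were lower in Sin3Bsg1 cells, with Gsdmd at 0.22 ± 0.0542 (adjusted p = 0.0113) and Casp4 at −0.50 ± 0.0728 (adjusted p = 0.000154). With IFNγ 1 was lower and 7 did not pass, and in the untreated experiment 1 of 7 was higher, Gsdmd (0.44 ± 0.0361, adjusted p = 1.00e-07). Over all genes 7.89% were higher and 9.32% lower without IFNγ, 8.62% and 7.89% with it and 15.1% and 16% in the untreated experiment, and with so few genes nothing is read from these counts about the list.

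Of the 23 genes of the list of cytosolic DNA sensing through Sting, 18 were tested. With IFNγ, 8 rose in sgCtrL cells (median log2 fold change 0.12), and 7 rose and 1 fell in Sin3Bsg1 cells (median 0.15). Among all genes tested, 15.7% were higher and 14.5% lower with IFNγ in sgCtrL cells, and 16.1% and 12.3% in Sin3Bsg1 cells. Samhd1, a nucleotide hydrolase that limits cytosolic DNA, rose by 3.06 ± 0.0468 (adjusted p = 3.1e-17) and Sting1, the adaptor to which Ifi204 is known to signal, by 0.69 ± 0.0626 (adjusted p = 4.1e-07). Sting1 was lower in Sin3Bsg1 than in sgCtrL cells in all 3 comparisons, with log2 fold changes of −1.01 ± 0.0581 in the untreated experiment (adjusted p = 1.5e-09), −0.67 ± 0.0635 without IFNγ (adjusted p = 2.2e-06) and −0.53 ± 0.0622 with IFNγ (adjusted p = 2.2e-05). In the IFNγ experiment Sting1 thus stood on the other side of 0 from the members that were higher in Sin3Bsg1 cells. No member passed the test as higher in the untreated experiment, where Ifi204 was lower (−0.44), as Sting1 was. Without IFNγ 1 gene of the list was higher and 2 were lower, and with IFNγ 4 were lower, among them Hmgb1 (−0.16 ± 0.0507, adjusted p = 0.0426) and Dhx36 (−0.16 ± 0.0419, adjusted p = 0.0133). Dhx9, an RNA and DNA helicase, did not pass in the IFNγ experiment. In the untreated experiment 4 of 17 were lower and 13 did not pass. Over all genes 7.89% were higher and 9.32% lower without IFNγ, 7.89% lower with it and 16% lower in the untreated experiment, so the counts without IFNγ are near the background.

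Of the 16 genes of the list of IFNγ receptor signalling, 15 were tested. With IFNγ, 8 rose and 2 fell in each genotype, with medians of 0.38 in sgCtrL and 0.40 in Sin3Bsg1 cells. Among all genes tested, 15.7% were higher and 14.5% lower with IFNγ in sgCtrL cells, and 16.1% and 12.3% in Sin3Bsg1 cells. Between genotypes 1 was higher and 2 were lower in Sin3Bsg1 cells without IFNγ, 2 were higher and 1 lower with it, and 2 of 14 were higher and 2 lower in the untreated experiment. These are near the shares over all genes, of 7.89% and 9.32% without IFNγ, 8.62% and 7.89% with it and 15.1% and 16% untreated. Irf1, a transcription factor that binds the ISRE, rose by 3.51 ± 0.0416 in sgCtrL and 3.56 ± 0.0415 in Sin3Bsg1 cells. Between genotypes Irf1 did not pass with IFNγ, at 0.063 ± 0.0370 (adjusted p = 0.286), where Ifi203, Ifi206, Ifi207 and Mndal were higher in Sin3Bsg1 cells. Ifngr1, the ligand-binding chain of the receptor, was at −0.12 ± 0.0466 without and −0.13 ± 0.0466 with IFNγ (adjusted p = 0.0863 and 0.0753), and Jak1, its kinase, at −0.049 ± 0.0496 and 0.0096 ± 0.0495. Socs3, an inhibitor of cytokine signalling, was lower in Sin3Bsg1 cells in both conditions (−0.22 ± 0.0473 and −0.18 ± 0.0474, adjusted p = 0.00422 and 0.0135).

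The genes whose log2(CPM + 1) was most like that of the summed members over the 12 libraries of the IFNγ experiment were H2-T23 (Pearson r = 0.999), Nos2 (r = 0.998), Neurl3 (r = 0.998), Tap2 (r = 0.998) and H2-Q4 (r = 0.998). The libraries fall into groups with and without IFNγ, so these r values mostly describe that step. H2-T23 and H2-Q4 are MHC class I genes, Tap2 is a subunit of the peptide transporter for class I molecules, Nos2 is the inducible nitric oxide synthase and Neurl3 encodes a ubiquitin ligase. All 5 were also higher in Sin3Bsg1 cells in both conditions, by 0.33 to 1.32 on the log2 scale without IFNγ and by 0.31 to 0.50 with it. They were picked for their likeness to the family, which includes this order of groups.

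Genes next to the cluster were taken within 1 Mb, and the 9 that were tested all lay on the side of Aim2. Of these, 1 was higher and 1 lower with IFNγ in sgCtrL cells, where 15.7% of all genes tested were higher and 14.5% lower. The one that rose was Slamf8, a receptor of the SLAM family (5.29, adjusted p = 2.6e-09). None passed between genotypes without IFNγ in edgeR and 1 did at an unadjusted p under 0.05, and with IFNγ 1 was higher, Tagln2, an actin-binding protein (0.20, adjusted p = 0.0212). Pigm, Dusp23 and Igsf9 did not pass in any of these comparisons. The shares over all genes between genotypes were 7.89% higher and 9.32% lower without IFNγ, and 8.62% and 7.89% with it. With so few neighbours nothing is read from their counts.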

How the data were processed

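RNA was measured by bulk RNA-seq in 16 libraries of KPC1199 cells, in 2 tables that were analysed separately. The authors deposited estimated counts per gene with gene lengths, made by alignment and gene counting. The submitters' processing notes name fastp, HISAT2, StringTie, DESeq2 and the build mm39, whereas the study's methods name HISAT2 on an earlier mouse build and featureCounts with uniquely mapped reads. Between 7.86% and 11.76% of the values per library of the IFNγ table and between 13.93% and 14.55% of those of the untreated table were not whole. Tool versions, annotation and strand setting are not given in the sources used here. The control columns carry a lacZ name that no label uses and were taken as sgCtrL, the one other guide. The authors' mean columns (4 and 2) and their comparisons were not used.

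Counts were rounded, and 324 assembled loci without a gene (0.615% to 0.677% of counts) were left out of the untreated table. Genes that passed filterByExpr were fitted with edgeR's quasi-likelihood test (version 4.0.16, R 4.3.3; TMM, two-sided, Benjamini-Hochberg over all genes of a table, threshold 0.05), with 1 mean per group over 12 libraries or over 4. SE was the log2 fold change over the root of F, and intervals are 95%. A count of 0 was given a floor of 3 counts per library, and no contrast was taken where both groups were at the floor. Floors cover counting error only. Only the edgeR test between genotypes, untreated and with IFNγ, was tried on simulated counts. The floors, sums, interaction, read sharing, likeness and promoter steps were not. Alternatives were DESeq2 (1.42.0), median-of-ratios size factors, no filter, at least 10 counts in every library, a replicate block, only the libraries compared, each library left out and, chosen after seeing the data, the other PYHIN genes added to the sum.

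The members and lists were chosen with earlier results of these data known. Named were all members, all other PYHIN genes with a row, the 5 most abundant tested genes of each further list and of the neighbours, and the 5 genes most like the summed members. Some items that this rule or the labels name are not reported here. Promoters came from the RefSeq table (GRCm38.p6) and positions from GENCODE vM39 on GRCm39.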

Additional observations from a re-analysis of the deposited data

Results flagged for a closer look

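The log2 fold change of Sin3Bsg1 against sgCtrL without IFNγ had opposite signs in the 2 experiments for a pair of members whose libraries did not overlap in either. It was −0.13 for Ifi203 among the untreated libraries and 0.62 among the libraries without IFNγ of the other table. For Ifi204 it was −0.44 and 0.25. The untreated value of Ifi203 did not pass the test (edgeR, adjusted p = 0.0603). With 2 libraries against 2, libraries can stand apart without a difference between the groups. The difference between the experiments was not tested, since the tables were made separately.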

How the results depend on the processing

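The counts of members called and the side of the threshold of each member were kept under DESeq2, median-of-ratios size factors and no filter. With at least 10 counts in every library Ifi206 was not tested, so that 3 members were called between genotypes with IFNγ, 6 for IFNγ in sgCtrL cells and 5 in Sin3Bsg1 cells, and the other members kept their side. The replicate block gave 1 member called in the untreated experiment and 5 without IFNγ, as without it, and changed no other call. Same-numbered libraries of different groups correlated by −0.049 to 0.17 in the IFNγ experiment, against −0.19 to 0.11 for libraries of different number. In the untreated experiment the values were 0.020 and −0.020, which must be opposite when 2 libraries per group are centred. Whether the numbers pair the libraries is therefore not settled by these values. With each library left out, the members called ranged from 1 to 2 (untreated), 3 to 5 (genotype without IFNγ), 4 to 6 (genotype with IFNγ), 6 to 7 (IFNγ in sgCtrL), 6 to 6 (IFNγ in Sin3Bsg1) and 0 to 0 (interaction). Aim2 between genotypes without IFNγ ranged from −0.021 to 0.027 (log2), with −0.0058 without Sin3Bsg1 replicate 2, and was never called. Aim2 with IFNγ in sgCtrL cells was −0.22 and not called with only its 6 libraries. The log2 ratio of the summed counts for IFNγ in Sin3Bsg1 cells was 2.36 with median-of-ratios size factors, outside the spread of its libraries. With the other PYHIN genes added it was 0.32 between genotypes with IFNγ, 2.26 for IFNγ in sgCtrL and 2.27 in Sin3Bsg1 cells; the sum then holds more genes by construction. Ifi202b, and Ifi206 without IFNγ, lay at or under 3 counts per library, where depth allows no comparison.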
